A study of Mus musculus with 6 samples.

Results

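The 10 genes described here encode the inflammatory mediators of the interleukin-1, inflammasome, tumour necrosis factor (TNF) and prostaglandin systems: Il1a, Il1b, Il1rn, Il1r2, Tnf, Il6, Ptgs2, Nfkbia, Nlrp3 and Acod1. They were taken by symbol from the 6 deposited count matrices of mouse melanomas, which list 31053 features, and all 10 were found in each matrix. Their levels were read by library in macrophages, monocytes, neutrophils and tumour cells, classes that were set by other genes.

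Interleukin-1 comes as 2 ligands, IL-1 alpha (Il1a) and IL-1 beta (Il1b), which act on the same receptor. The receptor antagonist (Il1rn) and the decoy receptor IL-1R2 (Il1r2) limit that signal. IL-1 beta is made as an inactive precursor that caspase-1 cleaves in an inflammasome, and Nlrp3 is the sensor of the best known of these complexes. The level of Il1b mRNA therefore does not give the level of the active cytokine. IL-1 and TNF (Tnf) both activate the transcription factor NF-kB, whose inhibitor I-kappa-B alpha (Nfkbia) is itself a target of NF-kB and limits the response. Il6 encodes interleukin-6. Ptgs2 encodes cyclooxygenase-2, which starts the synthesis of prostaglandins from arachidonic acid. Acod1 encodes the enzyme that makes itaconate in activated myeloid cells. In tumours, myeloid cells are known as a main source of these mediators, and carcinoma and melanoma cells can express Ptgs2.

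The tumours were grown from Yumm5.2, a mouse melanoma cell line, in C57BL/6 mice. They were started by injection of 350000 cells under the skin of the right flank and were taken at 0.5 cm3. Every line carried a hairpin against Cdkn2a, a tumour suppressor gene, controls included. The control line carried a control hairpin in addition, and 2 further lines carried hairpin 1 or hairpin 2 against Slc39a9, which encodes the zinc transporter ZIP9. Mice received 200 µg of IgG2a or of an antibody against PD1, an inhibitory receptor of T cells, 3 times a week by intraperitoneal injection. The 4 groups were therefore control with IgG (1 library), control with anti-PD1 (1 library), Slc39a9 knockdown with IgG (2 libraries, 1 for each hairpin) and knockdown with anti-PD1 (2 libraries, 1 for each hairpin). The labels do not say how many animals stand behind a library, so the p-values measure the spread between these 6 libraries, and each condition of the control rests on 1 cell line.

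The libraries held 5095 to 8881 cell barcodes and 58859821 to 83204249 UMIs (unique molecular identifiers, the count of captured transcripts). In all, 43843 cells passed a minimum of 300 genes and a maximum of 20% mitochondrial UMIs. Before that filter, each pair of libraries shared 63.2% to 89.5% of the barcodes of the smaller library. Of the barcodes kept, between 3859 and 6923 were shared by each pair of libraries, and their total UMIs correlated between libraries (Spearman's rho 0.949 to 0.983, a description over shared barcodes). The 2 cells behind a shared barcode fell into the same class in 44.2% to 55.4% of cases, against 45.1% to 55.8% for unrelated barcodes of like depth. The origin of the shared barcodes and of their like depth was not worked out. The tests below take the 6 libraries as separate samples. Slc39a9, the targeted gene, stood at 23.5 and 21.6 CPM (the gene's UMIs scaled to a fixed total of UMIs of the class) in tumour cells of the control IgG and anti-PD1 libraries. It stood at 8.25 and 8.38 CPM with hairpin 1 and at 12.2 and 11.6 CPM with hairpin 2. All 4 knockdown libraries were below both control libraries.

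Macrophages were cells with at least 3 UMIs of C1qa, C1qb and C1qc, monocytes had Ly6c2 with at most 1 such UMI. Neutrophils had at least 3 UMIs of S100a8 and S100a9, and tumour cells had at least 2 UMIs of Xist with none of the Y-linked genes and none of Ptprc. Made exclusive, so that 1 cell was in 1 class, these gates held 10347 macrophages, 365 monocytes, 1705 neutrophils and 4516 tumour cells. They are called the rule's gates below, though the rule gave no tumour gate. As first written the gates held 10351 macrophages, 415 monocytes and 1983 neutrophils. The neutrophil gate went against its name in part: cells with at least 1% of their UMIs from 30 genes of the tumour line made up 24.7% to 50.4% of its cells and held 73.2% to 92.2% of its UMIs. The levels below are therefore given for screened cells, a set added after these values were seen. Screened leukocytes were cells of these gates with under 0.5% of UMIs from the 30 genes. Screened tumour cells had at least 1% and were not limited to the tumour gate, as Xist was not required. They had none of the Y-linked genes or Ptprc, at most 1 C1q UMI, and S100a8 and S100a9 under 1% of UMIs. The 30 genes include Col1a2 and Dcn, so host fibroblasts without a Y-linked UMI were not kept out. The screened cells comprised 9500 macrophages, 317 monocytes (17 to 84 in a library), 928 neutrophils (295 and 387 in the control libraries, 27 to 96 in the others) and 22890 tumour cells. In screened neutrophils the 15 neutrophil markers summed to 7352 to 13180 CPM, with Csf3r at 1201 to 2608, and in macrophages to 137 to 392 CPM. Melanocyte pigment genes were near 0 in the tumour cells (Tyr 0.75 to 1.5 CPM, Pmel 0.52 to 0.68 CPM), while Pax3 stood at 52.8 to 89.6 CPM. Monocytes of the hairpin 1 IgG library were 17 cells that also held 1823 CPM of T and NK cell markers.

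Nfkbia, Il6 and Nlrp3 were the 3 members with a match to the NF-kB consensus near their start, and Il1b is shown as a member with none. The 250 bases upstream of their starts are set side by side (RefSeq, GRCm38.p6, strand of the gene), with the matches in capitals. For Il6 (chr5:30012864-30013113, plus strand) the match lay 44 to 35 bases upstream of the start. For Nfkbia (chr12:55492648-55492897, minus strand) it lay 29 to 20 bases upstream, and for Nlrp3 (chr11:59541319-59541568, plus strand) 186 to 177 bases upstream. The window of Il1b (chr2:129371140-129371389, minus strand) held no match.
Il6: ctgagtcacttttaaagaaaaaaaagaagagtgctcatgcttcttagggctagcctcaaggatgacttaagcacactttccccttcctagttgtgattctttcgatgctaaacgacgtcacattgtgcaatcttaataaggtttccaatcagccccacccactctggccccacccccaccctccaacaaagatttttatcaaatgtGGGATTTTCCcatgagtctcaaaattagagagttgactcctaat
Nfkbia: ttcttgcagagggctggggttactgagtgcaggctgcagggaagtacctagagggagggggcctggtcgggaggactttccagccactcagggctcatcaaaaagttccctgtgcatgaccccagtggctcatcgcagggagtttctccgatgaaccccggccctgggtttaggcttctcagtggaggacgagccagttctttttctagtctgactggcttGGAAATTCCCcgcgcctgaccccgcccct
Nlrp3: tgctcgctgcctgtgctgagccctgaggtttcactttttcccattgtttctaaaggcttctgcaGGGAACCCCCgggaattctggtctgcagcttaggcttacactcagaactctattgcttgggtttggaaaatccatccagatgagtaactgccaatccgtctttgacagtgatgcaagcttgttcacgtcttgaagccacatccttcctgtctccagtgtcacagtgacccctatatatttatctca
Il1b: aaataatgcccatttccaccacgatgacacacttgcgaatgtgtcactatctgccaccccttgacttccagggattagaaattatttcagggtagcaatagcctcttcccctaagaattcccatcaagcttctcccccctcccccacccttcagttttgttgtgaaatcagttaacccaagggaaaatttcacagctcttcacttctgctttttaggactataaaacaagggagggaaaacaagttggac
Windows were found for all 10 genes, with more than 1 for Nlrp3 and Il1rn, which have several starts. The other Nlrp3 window (chr11:59542436-59542685), not shown, held no match to the NF-kB consensus. With both strands of the 250 upstream bases searched, the NF-kB consensus occurred in 7.251% of 32851 RefSeq windows and in those of 3 of the 10 genes. TGANTCA, the core of an AP-1 site, occurred in 6.749% of all windows and in those of Il1a, Il1rn and Il6. TATAAA occurred in 12.368% of all windows and in those of Il1a, Il1b, Tnf and Acod1. TTGCNNAA occurred in 9.564% and in those of Il6 and Ptgs2, and TGACGTCA in 1.546% and in none of the 10. The TGANTCA match of Il1rn lay in only 1 of its windows (chr2:24336610-24336859). A gene was counted with a match in any of its windows, whereas the shares are over single windows. These are letter matches in 250 bases and show neither binding nor its absence.

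Il1b, on the minus strand of chromosome 2 (GENCODE M21 on GRCm38, 129364570 to 129371139), was carried by all 3 leukocyte classes. Among screened cells it was highest in neutrophils. In screened neutrophils it stood at 9711 and 12123 CPM in the control IgG and anti-PD1 libraries, 19067 and 14726 CPM with hairpin 1 and 22982 and 11517 CPM with hairpin 2. Macrophages held 1193 and 1172, 1234 and 1094, and 1899 and 1675 CPM in the same order, and monocytes 3330 and 5173, 1073 and 4524, and 5776 and 4090 CPM. The neutrophil and macrophage values did not overlap in any library. Over the 6 libraries the log2 difference of neutrophils from macrophages was 3.42 ± 0.25 (SE, adjusted p = 1.1e-13). Monocytes differed from macrophages by 1.29 ± 0.24 (adjusted p = 0.00011) and neutrophils from monocytes by 2.13 ± 0.24 (adjusted p = 1.8e-08). These and all class comparisons were made by edgeR's quasi-likelihood test with library as a block and Benjamini-Hochberg adjustment over all genes. In the gate without the screen the order was another, with medians over libraries of 1179 CPM in neutrophils, 2785 CPM in monocytes and 960 CPM in macrophages. There the log2 difference of neutrophils from monocytes was -0.73 ± 0.32 (adjusted p = 0.081) and that from macrophages 0.23 ± 0.31 (adjusted p = 0.53), and both hairpin 2 libraries had less Il1b in neutrophils than in macrophages. In that gate the monocyte difference from macrophages lost its call in 5 of the 6 fits without 1 library (0.82 to 1.09, adjusted p = 0.063 to 0.11); it kept it without the hairpin 1 IgG library. In tumour cells Il1b stood at 1.99 to 8.74 CPM. A UMI of Il1b was found in 88.9% to 95% of screened neutrophils and 41.4% to 55.6% of macrophages, against 2.51% to 5.86% of tumour cells. The median depth of tumour cells, 8997 to 12756 UMIs, was above that of macrophages (2560 to 4068) and neutrophils (818 to 1143). After thinning every cell to 1000 UMIs, and leaving out shallower cells (66 to 163 macrophages and 14 to 167 neutrophils in a library), the shares were 84.8% to 94.7%, 31.6% to 46.3% and 0.24% to 1.06%.

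Of the other interleukin-1 genes, the decoy receptor showed the same order in screened cells. Il1r2 (chromosome 1) ranged from 2358 to 4086 CPM in screened neutrophils (median 2702), from 68.1 to 1334 CPM in monocytes and from 50.8 to 193 CPM in macrophages. On the log2 scale neutrophils differed from macrophages by 4.85 ± 0.32 (adjusted p = 3.8e-15) and monocytes from macrophages by 2.56 ± 0.30 (adjusted p = 2.3e-08). In the gate without the screen monocytes (median 528 CPM) lay above neutrophils (247 CPM) for Il1r2, a log2 difference of neutrophils from monocytes of -0.65 ± 0.39 (adjusted p = 0.21). Its level in screened tumour cells was 0.40 to 1.72 CPM. Il1rn, the receptor antagonist (chromosome 2), ranged from 376 to 1487 CPM in neutrophils, from 130 to 436 CPM in monocytes and from 154 to 314 CPM in macrophages. Neutrophils were higher than macrophages by 1.95 ± 0.17 (log2, adjusted p = 4.7e-12), and monocytes and macrophages did not differ beyond their spread for Il1rn (0.05 ± 0.18, adjusted p = 0.89). Il1a, the other ligand, was sparse, with 17.5 to 318 CPM in neutrophils, 4.61 to 21.7 CPM in macrophages, 0 to 48.7 CPM in monocytes and 0.72 to 5.59 CPM in tumour cells.

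Acod1, the itaconate enzyme on chromosome 14, separated neutrophils most widely among the 10 genes. It stood at 1249 to 3407 CPM in screened neutrophils and at 7.81 to 14.6 CPM in macrophages, a log2 difference of 7.60 ± 0.38 (adjusted p = 2.5e-18). A UMI of Acod1 was present in 51.9% to 70.4% of neutrophils and 1.36% to 2.36% of macrophages, against 0.34% to 0.94% of tumour cells. Monocytes ranged from 0 in 2 libraries to 214 CPM. Nlrp3, the inflammasome sensor (chromosome 11), stood at 626 to 1328 CPM in neutrophils, 102 to 336 CPM in monocytes, 158 to 217 CPM in macrophages and 0.13 to 0.83 CPM in tumour cells. Neutrophils differed from macrophages by 2.15 ± 0.21 for Nlrp3 (log2, adjusted p = 8.8e-11), and monocytes from macrophages by 0.21 ± 0.22 (adjusted p = 0.56).

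Tnf, on chromosome 17, had another order. Macrophages held 89.7 to 130 CPM, neutrophils 14.4 to 210 CPM and monocytes 0 to 166 CPM. Monocytes were lower than macrophages by a log2 difference of -1.06 ± 0.32 (adjusted p = 0.018). Neutrophils did not differ from macrophages (-0.47 ± 0.29, adjusted p = 0.18) or from monocytes (0.59 ± 0.41, adjusted p = 0.31) beyond the spread between libraries for Tnf. Tumour cells held 0.13 to 0.31 CPM of Tnf.

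Ptgs2 and Il6 were the 2 genes that tumour cells carried above macrophages. Ptgs2, on chromosome 1, stood at 467 to 1189 CPM in tumour cells and 79.0 to 132 CPM in macrophages, a log2 difference of 3.00 ± 0.22 (adjusted p = 4.4e-15). As a share of the RNA of the class it was higher still in neutrophils, at 1572 to 4584 CPM (tumour cells from neutrophils -1.48 ± 0.21, adjusted p = 2.2e-07). Monocytes lay between macrophages and neutrophils, at 256 to 624 CPM. This is not an order per cell, as tumour cells were deeper. In control IgG, 1020 UMIs of Ptgs2 lay in 295 screened neutrophils and 68074 in 4005 screened tumour cells. Il6, on chromosome 5, stood at 2.46 to 16.9 CPM in tumour cells and 0.42 to 2.57 CPM in macrophages (2.33 ± 0.26, adjusted p = 3.6e-10). Its neutrophil and monocyte sums were at 0 in 3 and 2 of the 6 libraries. Nfkbia, the NF-kB inhibitor on chromosome 12, was present in every class, at 2688 to 3374 CPM in neutrophils, 494 to 1374 CPM in monocytes, 618 to 1026 CPM in macrophages and 395 to 538 CPM in tumour cells. Neutrophils exceeded macrophages by 2.03 ± 0.18 for Nfkbia (adjusted p = 7.7e-12) and tumour cells lay below macrophages by -0.75 ± 0.17 (adjusted p = 0.00014).

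**Figure D1:**
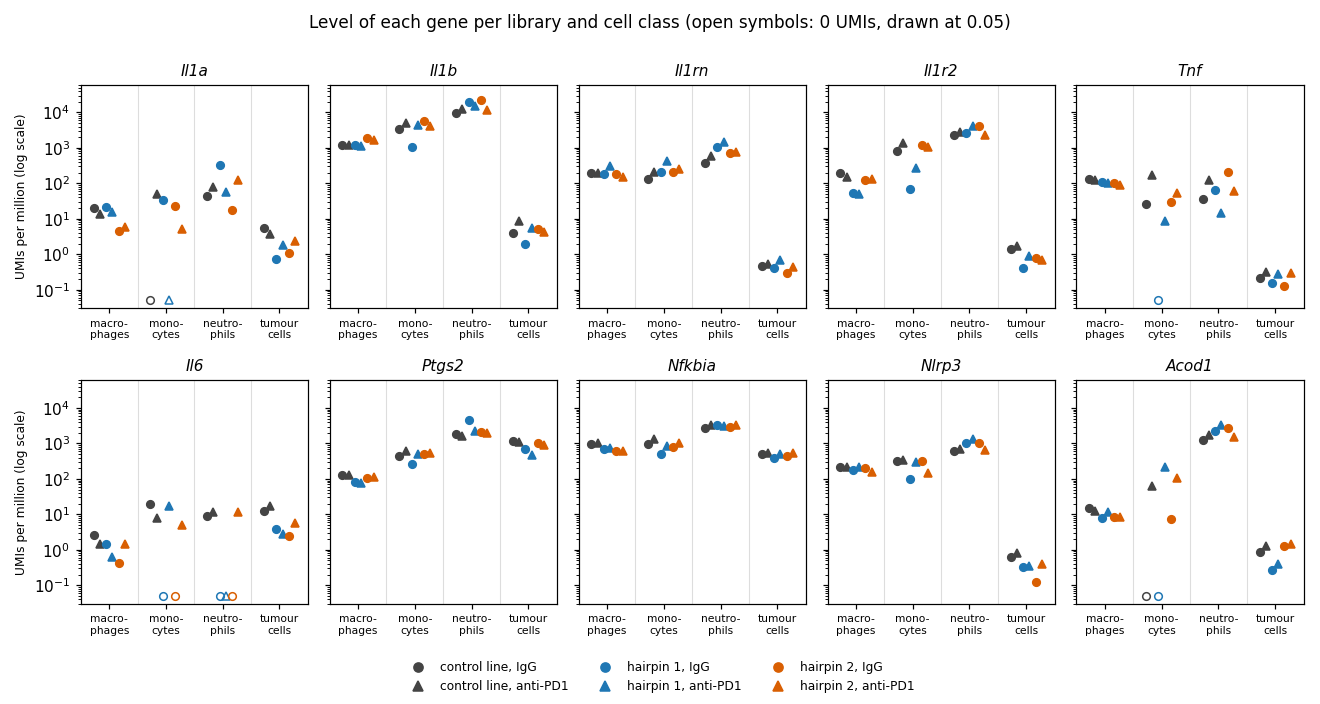
Level of each of the 10 genes in screened cells, in CPM on a log axis, for each library (colour: line, symbol: antibody; open symbols had 0 UMIs). Il1b, Il1r2 and Acod1 step up from macrophages to neutrophils, Il1b from 1094 to 1899 CPM in macrophages to 9711 to 22982 CPM in neutrophils, while Ptgs2, Nfkbia and Il6 are also present in tumour cells.

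In all, 9 of the 10 genes were higher in screened neutrophils than in macrophages (of all 11895 genes tested, 23.5% were), with a median log2 difference of 2.46 against -0.13 over all genes. Tnf was the exception. Il6 was among the 9 on only 0 to 7 UMIs in the screened neutrophils of a library, with 0 in 3 libraries. All class differences given here are in the share of RNA and not per cell, and the classes differ in depth. In control IgG, for example, Il1rn had 210 UMIs in 295 screened neutrophils and 997 UMIs in 1410 screened macrophages. Against macrophages, 2 of the 10 were higher in tumour cells (40.3% of all genes were) and 8 lower (38.8%), and 5 were higher in monocytes (6.54%) with 1 lower (11.8%). Against screened monocytes, 8 of the 10 were higher in neutrophils (16.1%) and 0 lower (8.73%), and in tumour cells 1 was higher (35.2%) and 8 lower (24.1%). Tumour cells were lower than screened neutrophils for 9 (26.3%) and higher for 0 (36.4%); 25.4% of all genes were lower in neutrophils than in macrophages. In the gates without the screen, 5 genes were higher and 3 lower in neutrophils than in macrophages (31.2% and 36.6% of 12887 genes). There Il1rn (-1.16 ± 0.20) and Nlrp3 (-1.08 ± 0.24) had the opposite sign. In those gates monocytes were higher than macrophages for 4 members (7.19%) and lower for 1 (11.5%), and tumour cells were higher for 2 (37.4%) and lower for 8 (38.3%). Against monocytes, neutrophils were higher for 3 (17.2%) and lower for 3 (18.5%), and tumour cells higher for 0 (23.4%) and lower for 7 (22.6%). Tumour cells were lower than neutrophils for all 10 members (18.2%; 15.5% of genes were higher). The immediate early and heat shock genes, a list of 28 genes that dissociation can raise, summed to 21895 to 31545 CPM in screened neutrophils, 17053 to 19821 CPM in macrophages and 10758 to 12514 CPM in tumour cells. Its part in the class differences was not tested.

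Most UMIs of Tnf, Nlrp3 and Il1rn lay in macrophages, which are the larger class. Macrophages held 69.8% to 91.1% of a library's Tnf UMIs, 51.3% to 83% of those of Nlrp3 and 57.6% to 86.3% of those of Il1rn. For Il1b the macrophage share was 31.9% and 30.8% in the control libraries, 70.4% and 57.5% with hairpin 1 and 55.2% and 55.8% with hairpin 2. The share of the neutrophil gate was 30.1% and 27.8%, 6.5% and 9.0%, and 7.9% and 13.2%. The macrophage share of Il1b was thus higher and the neutrophil share lower in all 4 knockdown libraries. The neutrophil gate held 6.93% and 7.18% of the cells of the control libraries and 1.26% to 2.94% of those of the knockdown libraries. Screened neutrophils made up 3.82% and 4.37%, and 0.53% to 1.16%. Acod1 was the gene with most of its UMIs in the neutrophil gate in the control libraries (68.6% and 68.9%). Ptgs2 UMIs lay in cells of the tumour gate (16.5% to 23.7%) and in cells of no gate with tumour-line RNA (57.0% to 73.4%), with 2.2% to 8.8% in macrophages. Between 20.9% and 32.7% of a library's Il1b UMIs, and up to 42.5% of its Il1r2 UMIs, lay in cells of no gate that had little tumour-line RNA.

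**Figure D2:**
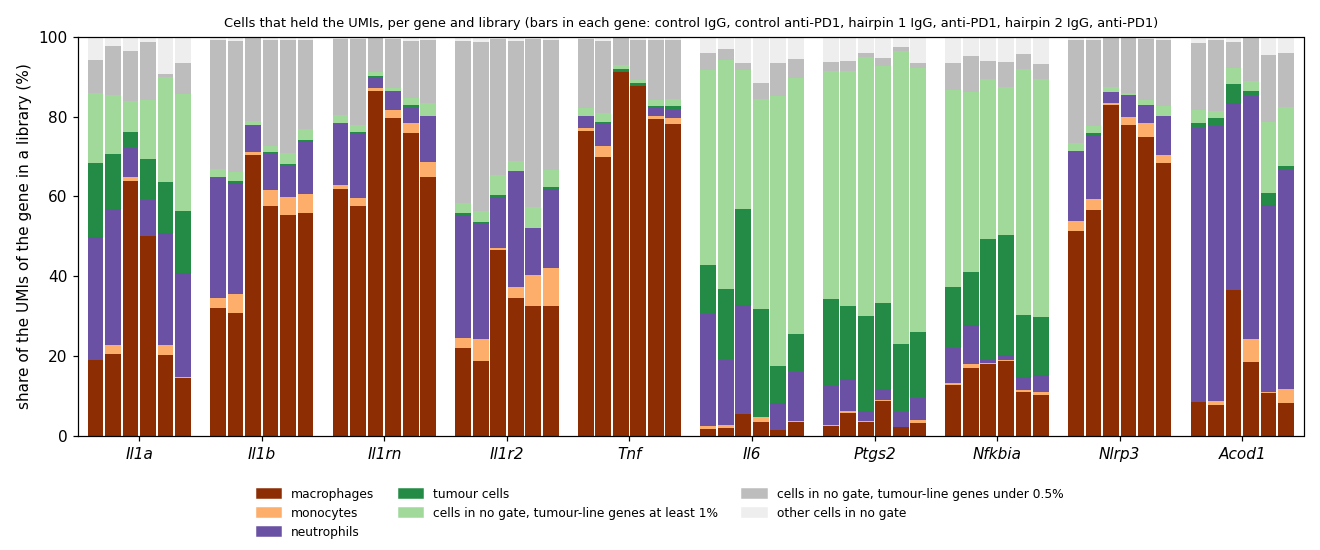
Share of a library's UMIs of each gene (in %) by the cells that held them, with the rule's gates; the 6 bars of a gene are the libraries in the order control IgG, control anti-PD1, hairpin 1 IgG and anti-PD1, hairpin 2 IgG and anti-PD1. Macrophages hold 69.8% to 91.1% of Tnf, and cells with tumour-line RNA hold most of Ptgs2 and Il6.

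The knockdown comparison asks whether loss of Slc39a9 in the tumour cells goes with other levels of these genes in the tumour and in its myeloid cells. In macrophages Nfkbia was lower in the knockdown tumours. It stood at 988 and 1026 CPM in the control IgG and anti-PD1 libraries, 703 and 733 CPM with hairpin 1 and 632 and 618 CPM with hairpin 2, so the groups did not overlap. A UMI of Nfkbia was present in 69.1% and 70.5% of control macrophages and in 53.6% to 67.6% of knockdown macrophages, or 46.9% and 48.2% against 35.2% to 39.8% after thinning. Its log2 difference was -0.56 ± 0.11 in the rule's gate (adjusted p = 0.16) and -0.60 ± 0.10 in screened cells (adjusted p = 0.088), with genotype and treatment in the fit. With each line given its own level (the replicate block), and both knockdown lines averaged, it was -0.57 ± 0.06 (adjusted p = 0.00092) and -0.61 ± 0.06 (adjusted p = 2.9e-05). DESeq2 without the block gave adjusted p = 0.0013 and 0.00034. The blocked fit takes its error from IgG and anti-PD1 libraries of the same line, so it measures these 3 lines and not the spread between lines.

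Il1r2 and Ptgs2 were also below the controls in all 4 knockdown libraries, to different degrees by hairpin. Il1r2 stood at 193 and 153 CPM in screened control macrophages, 54.5 and 50.8 CPM with hairpin 1 and 126 and 133 CPM with hairpin 2. Its log2 difference in screened cells was -0.95 ± 0.39 (adjusted p = 0.40), and -1.08 ± 0.08 with the replicate block (adjusted p = 3.9e-06). The value in the rule's gate was -0.91 ± 0.38 (adjusted p = 0.40; 0.00017 with the replicate block). Ptgs2 stood at 126 and 132 CPM in controls, 81.8 and 79.0 CPM with hairpin 1 and 103 and 115 CPM with hairpin 2. In the rule's gate, which kept macrophages with tumour-line RNA, its macrophage levels were 311 and 510, 168 and 236, and 228 and 278 CPM. The log2 difference of Ptgs2 was -0.85 ± 0.14 there (adjusted p = 0.12; 0.00063 with the replicate block) and -0.47 ± 0.15 in screened macrophages (adjusted p = 0.30; 0.00063 with the replicate block). Screening out cells with tumour-line RNA thus lowered the macrophage level of Ptgs2 and its difference.

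Tnf in screened macrophages stood at 130 and 126 CPM in controls, 106 and 104 CPM with hairpin 1 and 103 and 89.7 CPM with hairpin 2. The groups did not overlap, and the log2 difference was -0.37 ± 0.09 in screened cells (adjusted p = 0.19; 0.0037 with the replicate block) and -0.35 ± 0.11 in the rule's gate (adjusted p = 0.29; 0.024 with the replicate block). Acod1 was at 14.6 and 12.3 CPM in screened control macrophages and 7.81 to 11.9 CPM in the knockdown libraries. With stricter gates it was at 7.31 and 6.85 CPM in controls and at 6.82 and 8.64, and 4.97 and 5.34 CPM with hairpin 1 and 2, so that the groups overlapped (-0.16 ± 0.27, adjusted p = 0.86). Its log2 difference was -0.93 ± 0.21 in the rule's gate (adjusted p = 0.20; 0.014 with the replicate block) and -0.58 ± 0.22 in screened cells (adjusted p = 0.37; 0.087 with the replicate block). Nlrp3 stood at 216 and 217 CPM in controls and 158 to 210 CPM in the knockdown libraries. Its log2 difference was -0.23 ± 0.12 in screened cells (adjusted p = 0.53; 0.14 with the replicate block) and -0.19 ± 0.14 in the rule's gate (adjusted p = 0.64; 0.37 with the replicate block). Il6 was at 0.42 to 2.57 CPM in screened macrophages and did not pass either (-0.96 ± 0.58, adjusted p = 0.58; in the rule's gate -1.09 ± 0.57, adjusted p = 0.50).

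The 2 interleukin-1 ligands did not follow that pattern. In screened macrophages Il1b was at 1193 and 1172 CPM in controls and 1234 and 1094 CPM with hairpin 1, and at 1899 and 1675 CPM with hairpin 2. Il1a was at 20.6 and 13.9 CPM in controls, 21.7 and 15.7 CPM with hairpin 1 and 4.61 and 5.71 CPM with hairpin 2. For both genes only hairpin 2 stood apart. In screened macrophages the hairpin 2 line differed from the hairpin 1 line by 0.61 ± 0.07 for Il1b (log2, adjusted p = 0.00012), by -1.83 ± 0.23 for Il1a (adjusted p = 0.00018) and by 1.29 ± 0.10 for Il1r2 (adjusted p = 6.8e-06). Ptgs2 (0.43 ± 0.08, adjusted p = 0.0049) and Il1rn (-0.57 ± 0.16, adjusted p = 0.040) passed there too, 5 of 10 members in all (10.7% of genes). In the rule's gate 3 of 10 passed (6.96% of 13613 genes did), Il1b (0.53 ± 0.08, adjusted p = 0.0051), Il1a (-1.89 ± 0.24, adjusted p = 0.0024) and Il1r2 (1.19 ± 0.09, adjusted p = 0.00038). In that gate Il1b lost its call without the hairpin 1 IgG library (adjusted p = 0.063) or the hairpin 1 anti-PD1 library (adjusted p = 0.12). Il1rn passed there without the hairpin 1 IgG library (-1.02, adjusted p = 0.011) or the hairpin 2 IgG library (-0.90, adjusted p = 0.0012). In the average of both hairpins the log2 difference from control in screened macrophages was 0.29 ± 0.21 for Il1b (adjusted p = 0.65; 0.017 with the replicate block) and -0.50 ± 0.54 for Il1a (adjusted p = 0.78; 0.011 with the replicate block). Il1rn stood at 197 and 190 CPM in controls, 184 and 314 CPM with hairpin 1 and 178 and 154 CPM with hairpin 2. The high value was that of the hairpin 1 anti-PD1 library alone (0.07 ± 0.26, adjusted p = 0.94).

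**Figure D3:**
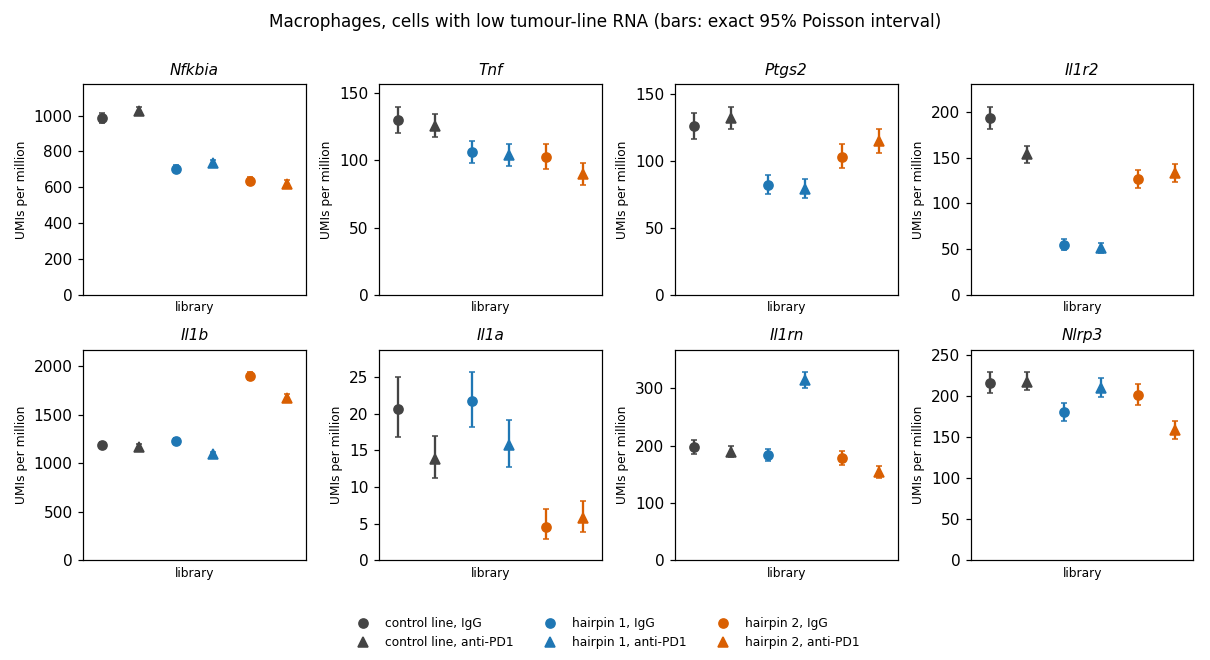
Levels of 8 of the genes in screened macrophages of each library, in CPM, with exact 95% Poisson intervals that cover counting error only. Nfkbia lies at 988 and 1026 CPM in the control libraries and at 618 to 733 CPM in the knockdown libraries, and Il1b is higher with hairpin 2 alone.

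Counted over the 10 genes, no member passed in macrophages by edgeR with genotype and treatment (0.118% of 13613 genes passed) or in screened macrophages (0.237%). In the rule's gate DESeq2 called 2, Nfkbia and Ptgs2 (1.27% of all genes). With the replicate block 6 members were lower and 1 higher, where 3.8% and 3.37% of all genes were. In screened cells 5 were lower and 1 higher, where 5.11% and 4.1% were. In screened macrophages all 4 knockdown libraries were below both control libraries for 6 of the 10 genes, as they were for 10.2% of genes with at least 10 UMIs. The stress list summed to 19159 and 19821 CPM in control macrophages and to 17053 to 18919 CPM in the knockdown libraries. The knockdown libraries thus lay below the controls as for Nfkbia, and its part was not tested. The macrophage markers were all above 0 in each library and summed to 16178 to 22708 CPM.

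In tumour cells, Il6 and Ptgs2, the members that these cells carried above macrophages, were below the controls in all 4 knockdown libraries. In screened tumour cells Il6 stood at 12.4 and 16.9 CPM in the control IgG and anti-PD1 libraries, 3.87 and 2.76 CPM with hairpin 1 and 2.46 and 5.74 CPM with hairpin 2. The groups did not overlap, and a UMI of Il6 was found in 4.39% and 4.83% of control tumour cells and in 1.69% to 2.73% of the others. The log2 difference of Il6 was -2.23 ± 0.36 in the rule's gate (adjusted p = 0.21; -2.25 ± 0.28, adjusted p = 0.00098 with the replicate block) and -2.05 ± 0.33 in screened cells (adjusted p = 0.13; 0.001 with the replicate block). DESeq2 gave adjusted p = 7.5e-05 without the block.

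Ptgs2 stood at 1189 and 1120 CPM in screened control tumour cells, 697 and 467 CPM with hairpin 1 and 1015 and 894 CPM with hairpin 2. It was thus lower in all 4 knockdown libraries, most so with hairpin 1. Cells with a UMI were 81.1% and 79.2% in controls, 57.7% and 49.9% with hairpin 1 and 77.3% and 74.0% with hairpin 2. The log2 difference of Ptgs2 was -1.0 ± 0.48 in the rule's gate (adjusted p = 0.41; -1.14 ± 0.13, adjusted p = 0.00071 with the replicate block) and -0.67 ± 0.30 in screened cells (adjusted p = 0.31; 0.0016 with the replicate block). Hairpin 2 exceeded hairpin 1 by 0.77 ± 0.11 in screened cells (adjusted p = 0.0024) and by 1.30 ± 0.16 in the rule's gate (adjusted p = 0.00057), where Ptgs2 stood at 475 and 277 CPM with hairpin 1 and 868 and 880 CPM with hairpin 2. It was the 1 member of 8 tested that passed in the rule's gate (28% of 13663 genes did). In screened cells 2 of 10 passed (29.4% of genes), Acod1 being the other, with 0.27 and 0.41 CPM with hairpin 1 and 1.32 and 1.43 CPM with hairpin 2 (2.08 ± 0.29, adjusted p = 0.0018).

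Il1a in screened tumour cells stood at 5.59 and 3.64 CPM in controls and 0.72 to 2.31 CPM in the knockdown libraries (-1.86 ± 0.45, adjusted p = 0.18; 0.0072 with the replicate block, and 0.0046 by DESeq2 without it). Its levels in the rule's gate were 7.57 and 5.40 CPM against 0.47 to 3.21 CPM (-2.38 ± 0.63, adjusted p = 0.29; 0.0033 with the replicate block, and 0.028 by DESeq2 without it). Nfkbia was at 516 and 538 CPM in controls, 395 and 494 CPM with hairpin 1 and 431 and 525 CPM with hairpin 2, and each IgG library was below its anti-PD1 counterpart. The groups overlapped, and its log2 difference was -0.28 ± 0.10 in screened cells (adjusted p = 0.24; 0.014 with the replicate block) and -0.17 ± 0.10 in the rule's gate (adjusted p = 0.48; 0.13 with the replicate block). Il1r2, Nlrp3, Tnf, Il1rn and Acod1 were all at or under 1.72 CPM in screened tumour cells, and 0.13% to 1.65% of the cells of a library had a UMI of any one of them. Of these, Il1r2 (-1.27 ± 0.26, adjusted p = 0.0088), Nlrp3 (-1.34 ± 0.33, adjusted p = 0.020) and Acod1 (-0.69 ± 0.22, adjusted p = 0.049) passed in screened cells with the replicate block and not without it (adjusted p = 0.18, 0.21 and 0.84). Acod1 in screened cells was at 0.86 and 1.24 CPM in controls, below both hairpin 2 libraries. In the rule's gate the blocked differences were -1.98 ± 0.47 for Il1r2 (adjusted p = 0.016), -1.70 ± 0.56 for Nlrp3 (adjusted p = 0.059) and -1.70 ± 0.50 for Acod1 (adjusted p = 0.039).

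No member passed in tumour cells by edgeR with genotype and treatment (0% of 13663 genes passed) or in screened tumour cells (0%). In the rule's gate edgeR tested 8 members, and DESeq2 called 2, Il1a and Il6 (1.35% of all genes). With the replicate block 5 of the 8 were lower (12.6% of all genes were) and 0 higher (10.2%), and in screened cells 7 of the 10 were lower (15.8%) and 0 higher (14.7%). In screened tumour cells all 4 knockdown libraries lay below both controls for 5 of the 10 genes (12.2% of genes). The stress list summed to 12211 and 12514 CPM in control tumour cells and 10758 to 12131 CPM in the others. Its part was not tested.

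**Figure D4:**
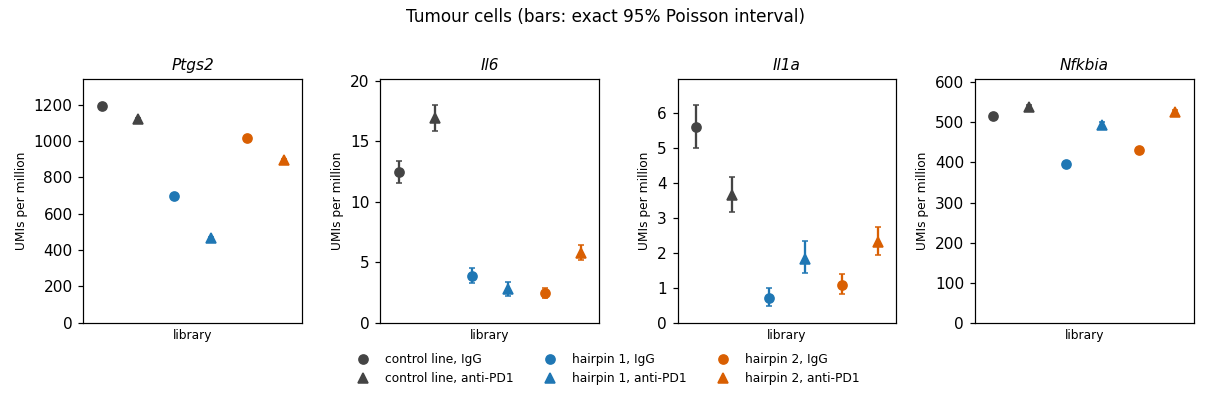
Levels of Ptgs2, Il6, Il1a and Nfkbia in screened tumour cells of each library, in CPM, with exact 95% Poisson intervals that cover counting error only. Il6 lies at 12.4 and 16.9 CPM in the control libraries and at 2.46 to 5.74 CPM in the knockdown libraries.

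Set against the control line one hairpin at a time (both comparisons share the 2 control libraries, and the values are those of the rule's gate), macrophage Nfkbia was lower with hairpin 1 (-0.45 ± 0.07, adjusted p = 0.0042) and with hairpin 2 (-0.69 ± 0.07, adjusted p = 0.0023). Il1r2 was lower with hairpin 1 by -1.62 ± 0.08 (adjusted p = 3.2e-05) and with hairpin 2 by -0.43 ± 0.08 (adjusted p = 0.021). Il1b did not pass with hairpin 1 (0.02 ± 0.08, adjusted p = 0.89) and was higher with hairpin 2 (0.56 ± 0.08, adjusted p = 0.0075). In tumour cells Il6 was lower with both hairpins (-2.13 ± 0.33, adjusted p = 0.0015, and -2.38 ± 0.36, adjusted p = 0.0077), whereas Ptgs2 passed with hairpin 1 (-1.79 ± 0.16, adjusted p = 8.5e-05) and not with hairpin 2 (-0.49 ± 0.16, adjusted p = 0.096). Over the macrophage members, 4 of 10 were lower with hairpin 1 (5.38% of genes) and 6 with hairpin 2 (2.01%), and 1, Il1b, was higher with hairpin 2 (1.7%). Over the 8 tumour cell members tested, 6 were lower with hairpin 1 (18%) and 1 with hairpin 2 (3.89%).

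**Figure D5:**
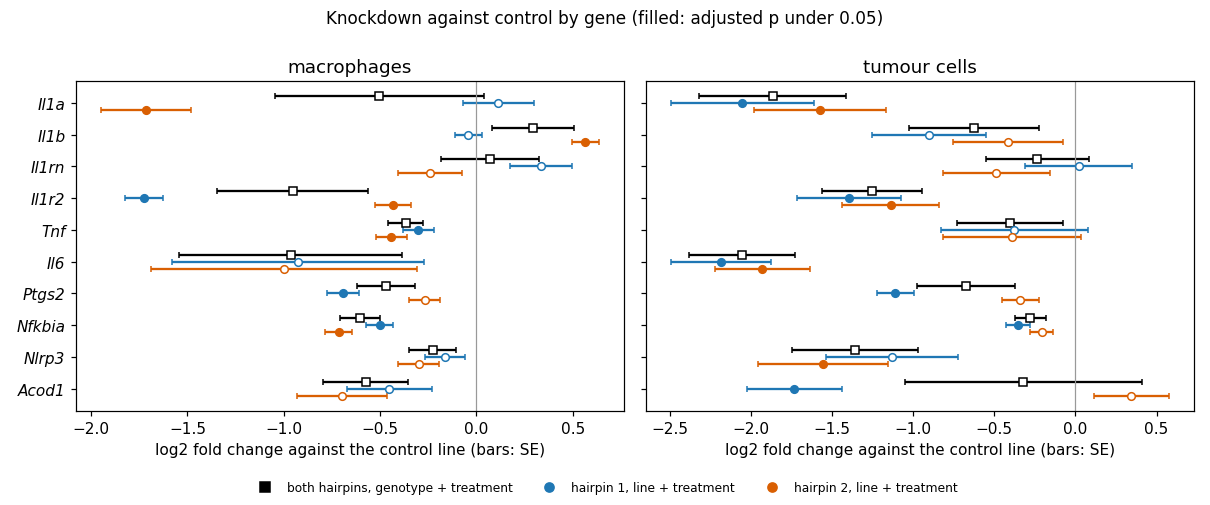
Log2 difference of the knockdown from the control line for each gene in screened macrophages and tumour cells, with its SE; squares average both hairpins with genotype and treatment in the fit, circles give each hairpin with line and treatment, and filled symbols had an adjusted p under 0.05. Nfkbia is below 0 for both hairpins in macrophages (-0.50 ± 0.07 and -0.72 ± 0.07), while Il1a and Il1b differ for hairpin 2 alone.

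In neutrophils and monocytes no member passed between knockdown and control, with or without the replicate block and in both sets of cells. Without the hairpin 2 anti-PD1 library, Il1rn (1.18, adjusted p = 0.027) and Acod1 (0.95, adjusted p = 0.047) passed as higher in screened neutrophils, and without the hairpin 1 anti-PD1 library Il1r2 passed as lower in the rule's gate (-1.11, adjusted p = 0.025). For neutrophils in the rule's gate edgeR tested 10 members and DESeq2 called 0 (edgeR passed 0% of 11406 genes). For monocytes edgeR tested 8 members and DESeq2 called 0 (edgeR passed 0% of 6723 genes). Of all genes, the replicate block passed 0.0526% in neutrophils and 0% in monocytes. In screened cells 0.131% and 0.105% of genes passed, and 0.472% and 0.439% with the block. The direction in neutrophils turned with the screen. In the rule's gate 10 of 10 members had a negative log2 difference (median -0.49), where 49.1% of all genes had one (median 0.01). In screened cells 0 of the 9 tested did (median 0.62), where 50% of all genes did (median 0.00). For Ptgs2, for example, screened neutrophils held 1825 and 1572 CPM in controls, 4584 and 2223 CPM with hairpin 1 and 2118 and 2017 CPM with hairpin 2 (0.67 ± 0.38). The high value was that of the hairpin 1 IgG library, which had 27 such cells. Il1rn and Ptgs2 were the 2 members above both controls in all 4 knockdown libraries (2.39% of genes were).

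Treatment with anti-PD1 was compared with IgG over the 3 lines. No member passed in any of the 4 classes with genotype and treatment in the fit, and 0% of genes passed in each class. By edgeR 10 members were tested in macrophages, 10 in neutrophils, 8 in monocytes and 8 in tumour cells, and DESeq2 called 0. These fits take the hairpin lines as replicates and do not pair the IgG and anti-PD1 libraries of a line. With the replicate block, which pairs them, no member passed in the rule's gates either. Without the filter on low counts, 1 member passed in monocytes (Acod1; 0.0399% of genes) and 6 in neutrophils (0.88% of genes). The 6 were Il1b, Il1rn, Il1r2, Nlrp3 and Acod1, which were higher, and Il6, which was lower. None passed in screened neutrophils, where their log2 differences lay between -0.43 and 0.55. The lowest adjusted p of the filtered fits was that of Acod1 in screened monocytes, with 0, 0 and 7.57 CPM in the IgG libraries and 64.9, 214 and 105 CPM in the anti-PD1 libraries of the control, hairpin 1 and hairpin 2 lines (4.99 ± 0.84, adjusted p = 0.070). The anti-PD1 libraries were above the IgG libraries there in 3 of 3 lines, on 17 to 84 cells in a library. The levels depended on the gate. With stricter gates, Acod1 in monocytes stood at 0, 0 and 6.06 CPM in the IgG libraries of the same lines. It stood there at 10.5, 233 and 40.8 CPM in the anti-PD1 libraries, on 3, 25 and 7 UMIs.

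Other genes of the same pathways were taken from lists by role. In macrophages of the rule's gate, 2 of them passed between knockdown and control (0.118% of all genes did). Cxcl3, a neutrophil chemokine, was lower, with 49.7 and 38.5 CPM in controls and 6.57 to 13.4 CPM in the knockdown libraries (-2.18 ± 0.25, adjusted p = 0.047). Hpgd, which breaks down prostaglandins, was higher, with 18.6 and 17.3 CPM against 33.6 to 44.6 CPM (1.06 ± 0.12, adjusted p = 0.047). Both calls ended in each of the 6 fits without 1 library, with Cxcl3 at -2.59 to -1.79 (adjusted p = 0.051 to 0.92) and Hpgd at 1.00 to 1.10 (adjusted p = 0.054 to 0.92). They also ended without leukocytes that carried Xist (Cxcl3 adjusted p = 0.080 and Hpgd 0.053), and Hpgd did so with stricter gates (0.054). Both genes passed in screened macrophages by edgeR (adjusted p = 0.040 for Cxcl3 and 0.035 for Hpgd). They also passed in the rule's gate by DESeq2 (adjusted p = 2.6e-10 and 9.9e-06). The screened calls, too, ended in most of the fits without 1 library. That of Cxcl3 held only without the hairpin 1 anti-PD1 library. That of Hpgd held only without that library or without the hairpin 2 IgG library. With the replicate block, which called 3.8% of all genes lower and 3.37% higher, 8 of the 18 genes tested of the LPS-inducible macrophage list were lower and 1 higher (median -0.27, against 0.00 over all genes), among them Cxcl1 (-0.88 ± 0.12) and the cystine transporter Slc7a11 (-0.84 ± 0.10), with the LPS co-receptor Cd14 higher (0.27 ± 0.07). Of the prostaglandin and leukotriene list, 2 of 20 were higher, Hpgd and the prostaglandin D synthase Hpgds (0.29 ± 0.07), and 4 lower, among them the prostaglandin E synthase Ptges (-0.68 ± 0.13) and the leukotriene enzymes Ltc4s (-0.84 ± 0.13) and Alox5 (-0.49 ± 0.09). Of the inflammasome list 0 of 20 were higher and 2 lower (Casp4 and Ninj1), and of the TNF list 0 of 20 and 2 (Tnfaip3 and Tnfaip2). The counts were, of the IL-6 list 0 of 14 and 6 (among them Il11, Lif and Clcf1), of the interleukin-1 list 0 of 18 and 1 (Il1rap) and of the NF-kB list 1 of 24 (Tnip3) and 0. All these list counts are of the rule's gate. There, macrophages with at least 1% of UMIs from tumour-line genes held 18.4% to 23.7% of the macrophage UMIs. Il11, Lif, Clcf1 and Ptges were lower in tumour cells too, and the part of tumour-line RNA in these macrophage values was not tested.

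In tumour cells none of the pathway genes passed without the block. With it, 6 of the 16 genes tested of the prostaglandin list were lower and 0 higher, among them the other cyclooxygenase Ptgs1 (-0.77 ± 0.10), Ptges (-0.76 ± 0.10) and the phospholipase Pla2g4a, which releases arachidonic acid (-0.58 ± 0.07). Of the IL-6 list 7 of 14 were lower and 1 higher, with the cytokines Lif (-1.81 ± 0.15), Il11 (-1.28 ± 0.21) and Clcf1 (-1.27 ± 0.08) lower as Il6 was. The inflammasome list was divided, with 4 of 15 higher (Il18 1.69 ± 0.21 and Txnip 1.21 ± 0.07 among them) and 4 lower (Ninj1 -0.61 ± 0.08). Of the interleukin-1 list 2 of 18 were higher and 4 lower, Il33 by -2.04 ± 0.26. These counts stand beside 10.2% of all genes higher and 12.6% lower in that fit. Ptgs1, Ptges and the receptor gene Ptger1 also differed between the hairpins (higher with hairpin 2).

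Between classes, the lists set neutrophils apart in the same comparison as the members. In screened cells 15 of 18 LPS-inducible genes and 13 of 20 interleukin-1 genes were higher in neutrophils than in macrophages (23.5% of all genes were), with Cxcl3 at 5.91 ± 0.35, Clec4e, a C-type lectin, at 4.48 ± 0.26 and the ligand gene Il1f9 at 9.26 ± 0.33 (Il1f9 was also a marker of the class). The inflammasome list was divided, 6 higher and 6 lower of 20: Nlrp12 was higher by 9.35 ± 0.39, while Nlrc4 (-2.91 ± 0.41), Nlrp1b (-2.08 ± 0.31) and the adaptor Pycard (-1.79 ± 0.24) were lower. In the prostaglandin list Ptges was higher in neutrophils (3.41 ± 0.27) and the genes Hpgd (-5.23 ± 0.75), Hpgds (-4.50 ± 0.33) and the thromboxane synthase Tbxas1 (-3.16 ± 0.32) were lower.

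Over the 24 sums of library and class in the rule's gates, the genes whose log2(CPM + 1) was most like that of a member were, for Il1b, Srgn (Pearson's r 0.993), Cd300lf (0.987) and Sirpb1b (0.985). They were, for Nlrp3, Ccr1 (0.992), for Il1rn, Lilr4b (0.991), and for Il1r2, Sorl1 (0.98) and Clec4e (0.98). The best match was lower for Tnf (Tlr1, 0.946), Ptgs2 (Tmc6, 0.924), Acod1 (Hcar2, 0.9), Nfkbia (Socs3, 0.844), Il6 (Tpt1, 0.838) and Il1a (Amer2, 0.745). These values describe 24 sums that share libraries and classes, and the neutrophil sums held tumour-line RNA.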

How the data were processed

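Single-cell RNA was counted in 6 libraries. The authors deposited UMI counts per gene and cell barcode, made with Cell Ranger 7.0.1 on mm10 per the submitters' processing notes; filters applied before deposit are not given in the sources used here. Cells with at least 300 genes and at most 20% mitochondrial UMIs were kept and gated on raw counts of other genes; no doublet caller was run. Gates were made exclusive, so that macrophages and tumour cells had S100a8 and S100a9 under 1% of UMIs and other classes at most 1 C1q UMI. Monocytes had at most 2 UMIs of S100a8 and S100a9, and cells of the tumour gate were left out of monocytes and neutrophils.

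Sums of the counts of a class in a library were tested with edgeR 4.0.16 (TMM, filterByExpr, quasi-likelihood) in R 4.3.3. Fits had genotype and treatment, line and treatment for hairpins, or class and library on 24 sums, with p-values adjusted over all genes tested. DESeq2 1.42.0, no filter, the replicate block, other gates and leaving out each library were alternatives. Screened cells (under 0.5% or at least 1% of UMIs from 30 tumour-line genes, chosen at 8 times higher CPM in tumour cells) and single-hairpin contrasts were added after the data were seen. Screened tumour cells did not need Xist. In the knockdown groups the replicate number is the hairpin number, so same-numbered knockdown libraries share a cell line per the labels; the control line has 1 library per treatment. Deviations from group means correlated between same-numbered knockdown libraries at 0.443 in macrophages, 0.66 in tumour cells, 0.075 in neutrophils and -0.172 in monocytes.

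The members and lists were chosen with earlier results of these data known, which also gave the tumour gate. Named were all 10 members and, of each pathway list, up to 3 genes per direction with an adjusted p under 0.05, a mean of at least 5 CPM and the largest log2 difference; named likeness is the highest Pearson's r over the 24 sums. Intervals are exact 95% Poisson intervals and cover counting error only. On simulated counts the macrophage comparison recovered 75% of 2-fold and 97% of 4-fold changes among 13613 genes, and the monocyte comparison 41% and 82% among 6723. The simulation had a fixed dispersion and no difference between the hairpin lines. Its recovery therefore does not measure the power of the fits to these libraries, whose hairpin lines differ.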

Additional observations from a re-analysis of the deposited data

Results flagged for a closer look

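The 2 Slc39a9 hairpin lines differed from each other in their effect against the shared control line for 4 values, by the edgeR test of the difference itself. In macrophages of the rule's gate the log2 difference of hairpin 2 from hairpin 1 was -1.89 for Il1a, 0.53 for Il1b and 1.19 for Il1r2. In that gate Il1a stood at 18.2 and 13.1 CPM with hairpin 1 and at 3.69 and 4.64 CPM with hairpin 2, and Il1b at 994 and 886 CPM against 1500.4 and 1267 CPM. In tumour cells of the rule's gate the difference was 1.30 for Ptgs2, which stood at 475 and 277 CPM with hairpin 1 and at 868 and 880 CPM with hairpin 2. In screened tumour cells it was 0.77, from 697 and 467 CPM to 1015 and 894 CPM. The hairpin 1 line also had the lower Slc39a9 level in screened tumour cells, 8.25 and 8.38 CPM against 12.2 and 11.6 CPM. Each line is 1 cell line, so hairpin and line cannot be told apart, and the part of the Slc39a9 level in these differences was not tested.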

How the results depend on the processing

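The counts of genes called changed with several choices, and the cause was not tested unless given. Between knockdown and control, macrophages gave 16 genes, against 202 by DESeq2, 520 without the filter on low counts, 4 without leukocytes that carried Xist, and 0 to 14 when 1 library was left out. Monocytes gave 0, against 1 by DESeq2, 39 without the filter, 1 with the gates as written and 0 to 4 with a library left out. Neutrophils gave 0, against 23 by DESeq2, 319 without the filter, 4 with stricter gates and 0 to 38 with a library left out. Tumour cells gave 0, against 219 by DESeq2 and 231 without the filter. Between the hairpins, macrophages gave 947, against 457 by DESeq2, 1778 without the filter and 145 to 1113 with a library left out. Tumour cells gave 3828, against 2187 by DESeq2, 2078 with stricter gates and 1969 to 3480 with a library left out. Anti-PD1 gave 0 in every class, against 8, 6 and 165 without the filter in macrophages, monocytes and neutrophils and 27 with stricter gates in neutrophils. Without the filter, Il1r2, Ptgs2, Nfkbia and Acod1 were among the 520 genes called between knockdown and control in macrophages. Il1r2, Il6 and Nfkbia were among the 319 in neutrophils, and Il1a and Il6 among the 231 in tumour cells. The named members were lower in the knockdown, while these totals cover either direction. The share of all genes called lower is not given, so these calls are not set against it.

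With the replicate block, which pairs the IgG and anti-PD1 libraries of a line, knockdown against control gave 976 genes in macrophages, 6 in neutrophils and 3115 in tumour cells. In screened cells the replicate block gave 1165, 18 and 4939, with 21 in monocytes, and for anti-PD1 it gave 5 in macrophages and 3 in neutrophils. It removes the spread between the hairpin lines from the error.

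In screened cells without the block, knockdown against control gave 30 genes in macrophages, 5 in monocytes and 5 in neutrophils, and anti-PD1 gave 1 in neutrophils. DESeq2 on screened cells gave 146 in macrophages, 5 in monocytes and 1096 in tumour cells for the knockdown and 511 between the hairpins in macrophages. Against control, hairpin 2 gave 827 genes in screened macrophages (505 in the gate), 5 in monocytes (0), 16 in neutrophils (10) and 2324 in tumour cells (960), and hairpin 1 gave 25 in monocytes (0). Between classes, neutrophils against macrophages gave 8742 genes, 4846 with stricter gates and 5819 in screened cells. Neutrophils against monocytes gave 4602, 2920 and 2951, and tumour cells against neutrophils 4344, 7096 and 7453. Monocytes against macrophages gave 2407, 3929 with the gates as written and 1257 with stricter gates.

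Several class differences of the members turned sign with the cells that were kept. Neutrophils against monocytes became positive with stricter gates and in screened cells (log2): 2.53 and 2.13 for Il1b, 1.92 and 1.90 for Il1rn, 2.78 and 2.29 for Il1r2, 1.19 and 0.59 for Tnf, and 2.14 and 1.94 for Nlrp3. Neutrophils against macrophages became 2.25 and 1.95 for Il1rn and 2.67 and 2.15 for Nlrp3. With stricter gates Il6 became -2.83 for neutrophils against monocytes, -0.60 against macrophages and 2.38 for tumour cells against neutrophils, and in screened cells Ptgs2 became 0.92 for tumour cells against monocytes. In screened cells without the hairpin 2 anti-PD1 library, the knockdown difference in neutrophils was 1.18 for Il1rn and 0.95 for Acod1, and without the hairpin 1 IgG library Il6 was 0.92 for hairpin 2 against hairpin 1 in tumour cells. Il1r2 passed in knockdown neutrophils (-1.11, adjusted p = 0.025) without the hairpin 1 anti-PD1 library. Depth limits the small classes most: 17 to 84 screened monocytes in a library, and 27 to 96 screened neutrophils in a knockdown library.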

Other observations

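Cells that fell in no gate and had under 0.5% of UMIs from the tumour-line genes numbered 343 to 1078 in a library. They were a mixture. The monocyte and macrophage gene Csf1r stood at 693 to 1412 CPM and Ccr2 at 483 to 1017 CPM, and C1qa, which the gates bound, at 13.5 to 38.1 CPM. The mast cell genes varied widely between libraries, Mcpt4 from 52.0 CPM in control IgG to 1686 CPM in hairpin 2 IgG and Cpa3 from 93.8 to 1130 CPM, and Mcpt4 was above Csf1r in hairpin 1 IgG and in both hairpin 2 libraries. The ungated cells held Il1b at 1395 to 3473 CPM and Il1r2 at 151 to 736 CPM. Between 5.08% and 21.7% of them had a UMI of the neutrophil genes Csf3r or Cxcr2, with 20.3% and 21.7% in the control libraries. Those cells held 43.0% and 40.8% of the Il1b UMIs of the ungated cells in the control libraries, and 10.9% to 26.0% in the knockdown libraries.

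Among screened tumour cells, Il6 was higher in the few that carried the acute phase gene Saa3. Cells with at least 3 UMIs of Saa3 numbered 92 and 100 in the control libraries, 21 and 11 with hairpin 1 and 123 and 140 with hairpin 2. Their Il6 level was 80.1 and 54.7 CPM, 206 and 187 CPM, and 12.6 and 26.0 CPM in that order, against 11.1 and 16.0, 2.54 and 2.33, and 2.24 and 5.20 CPM in the other tumour cells. The split was chosen after the values were seen, and no test was made of it.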
